A study of Mus musculus with 59 samples.

Results

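The transcripts described here encode 10 receptors through which peptides and hormones of arousal, feeding state and growth act on cells. They are the orexin receptors Hcrtr1 and Hcrtr2, the neurotensin receptors Ntsr1 and Ntsr2, the receptors for leptin (Lepr), ghrelin (Ghsr), melanocortins (Mc4r) and glucagon-like peptide 1 (Glp1r), and the receptor tyrosine kinases for insulin (Insr) and insulin-like growth factor 1 (Igf1r). They were taken by symbol, as 10 of the 24346 symbols of the deposited expression table. The choice was made with earlier results of these data known. A mean of at least 1 FPKM (a count of fragments divided by the length of the transcript and by the mapped total) over all libraries was reached by 8 of them and by 13186 of all symbols, while Mc4r and Glp1r lay under it.

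Male mice in 4 paradigms gave the RNA, taken from the ventral tegmental area of the midbrain (VTA), the source of the dopamine fibres that reach the nucleus accumbens and prefrontal cortex. These were acute injection in the home cage (5 cocaine and 6 saline libraries), chronic injection in the home cage (6 and 6), cocaine conditioning (6 and 6) and intravenous self-administration (15 and 9), 59 libraries in 8 groups. Cocaine blocks the dopamine transporter, and each paradigm has its own saline group. Strain, age, dose, number of injections and time of dissection are not stated in the labels, nor whether each library came from a separate mouse, so the spread behind each p-value is that between libraries and may be technical. Libraries are named here by the numbers of the deposited table, which count from 0 within a group.

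Summed FPKM per library ran from 398577 to 457508, with 5689 to 7925 symbols listed at 0, and the read depth is unknown. Dopamine neuron transcripts were present in every library: Th, which makes the dopamine precursor, ran from 124 to 691 FPKM over the 59 libraries, and Slc6a3, the dopamine transporter, from 107 to 608 FPKM. These also mark the dopamine neurons of the neighbouring substantia nigra and do not show the region. Self-administration libraries differed from the rest in most genes, as given below, so relations between genes were computed after subtracting group means and within the 35 injection and the 24 self-administration libraries.

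Orexins and neurotensin are peptides released by lateral hypothalamic neurons, among other cells, that excite VTA dopamine neurons through receptors coupled to Gq proteins. Neurotensin also binds the second, lower-affinity receptor Ntsr2, which in brain is made largely by astrocytes. Leptin and insulin report energy stores and dampen dopamine-driven food seeking, ghrelin reports hunger and raises it, and glucagon-like peptide 1 and melanocortin agonists act on receptors coupled to Gs proteins to lower food intake. The insulin and insulin-like growth factor 1 receptors act through the IRS, PI3-kinase and AKT proteins in most cell types.

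The 10 receptors spanned a wide range of levels. Averaged over the 8 group means, Ntsr2 stood at 98.9 FPKM, Ntsr1 at 15.8, Hcrtr1 at 7.93, Insr at 6.78, Igf1r at 5.69, Ghsr at 4.66, Hcrtr2 at 3.27, Lepr at 1.23, Mc4r at 0.813 and Glp1r at 0.495 FPKM. These levels are per transcript length and can be set beside each other only roughly. Differences between paradigms moved with GC content and length, as given below, and the annotation behind the values is not known. Ntsr2 lay above Ntsr1 in 59 of 59 libraries, with ranges that did not overlap in any of the 8 groups, and Hcrtr2 lay above Lepr in 59 of 59 with the same separation in all 8 groups.

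Other neighbours in this order were closer. Insr lay above Igf1r in 59 of 59 libraries, but their ranges separated in only 3 of the 8 groups. Hcrtr1 lay above Insr in 35 of 35 injection libraries and in 6 of 24 self-administration libraries. Ghsr lay above Hcrtr2 in 34 of 35 injection and 17 of 24 self-administration libraries, and their ranges separated in only 3 of the 8 groups. Ntsr1 lay above Hcrtr1 in 54 of 59 libraries, with ranges that also separated in only 3 of the 8 groups.

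**Figure D1:**
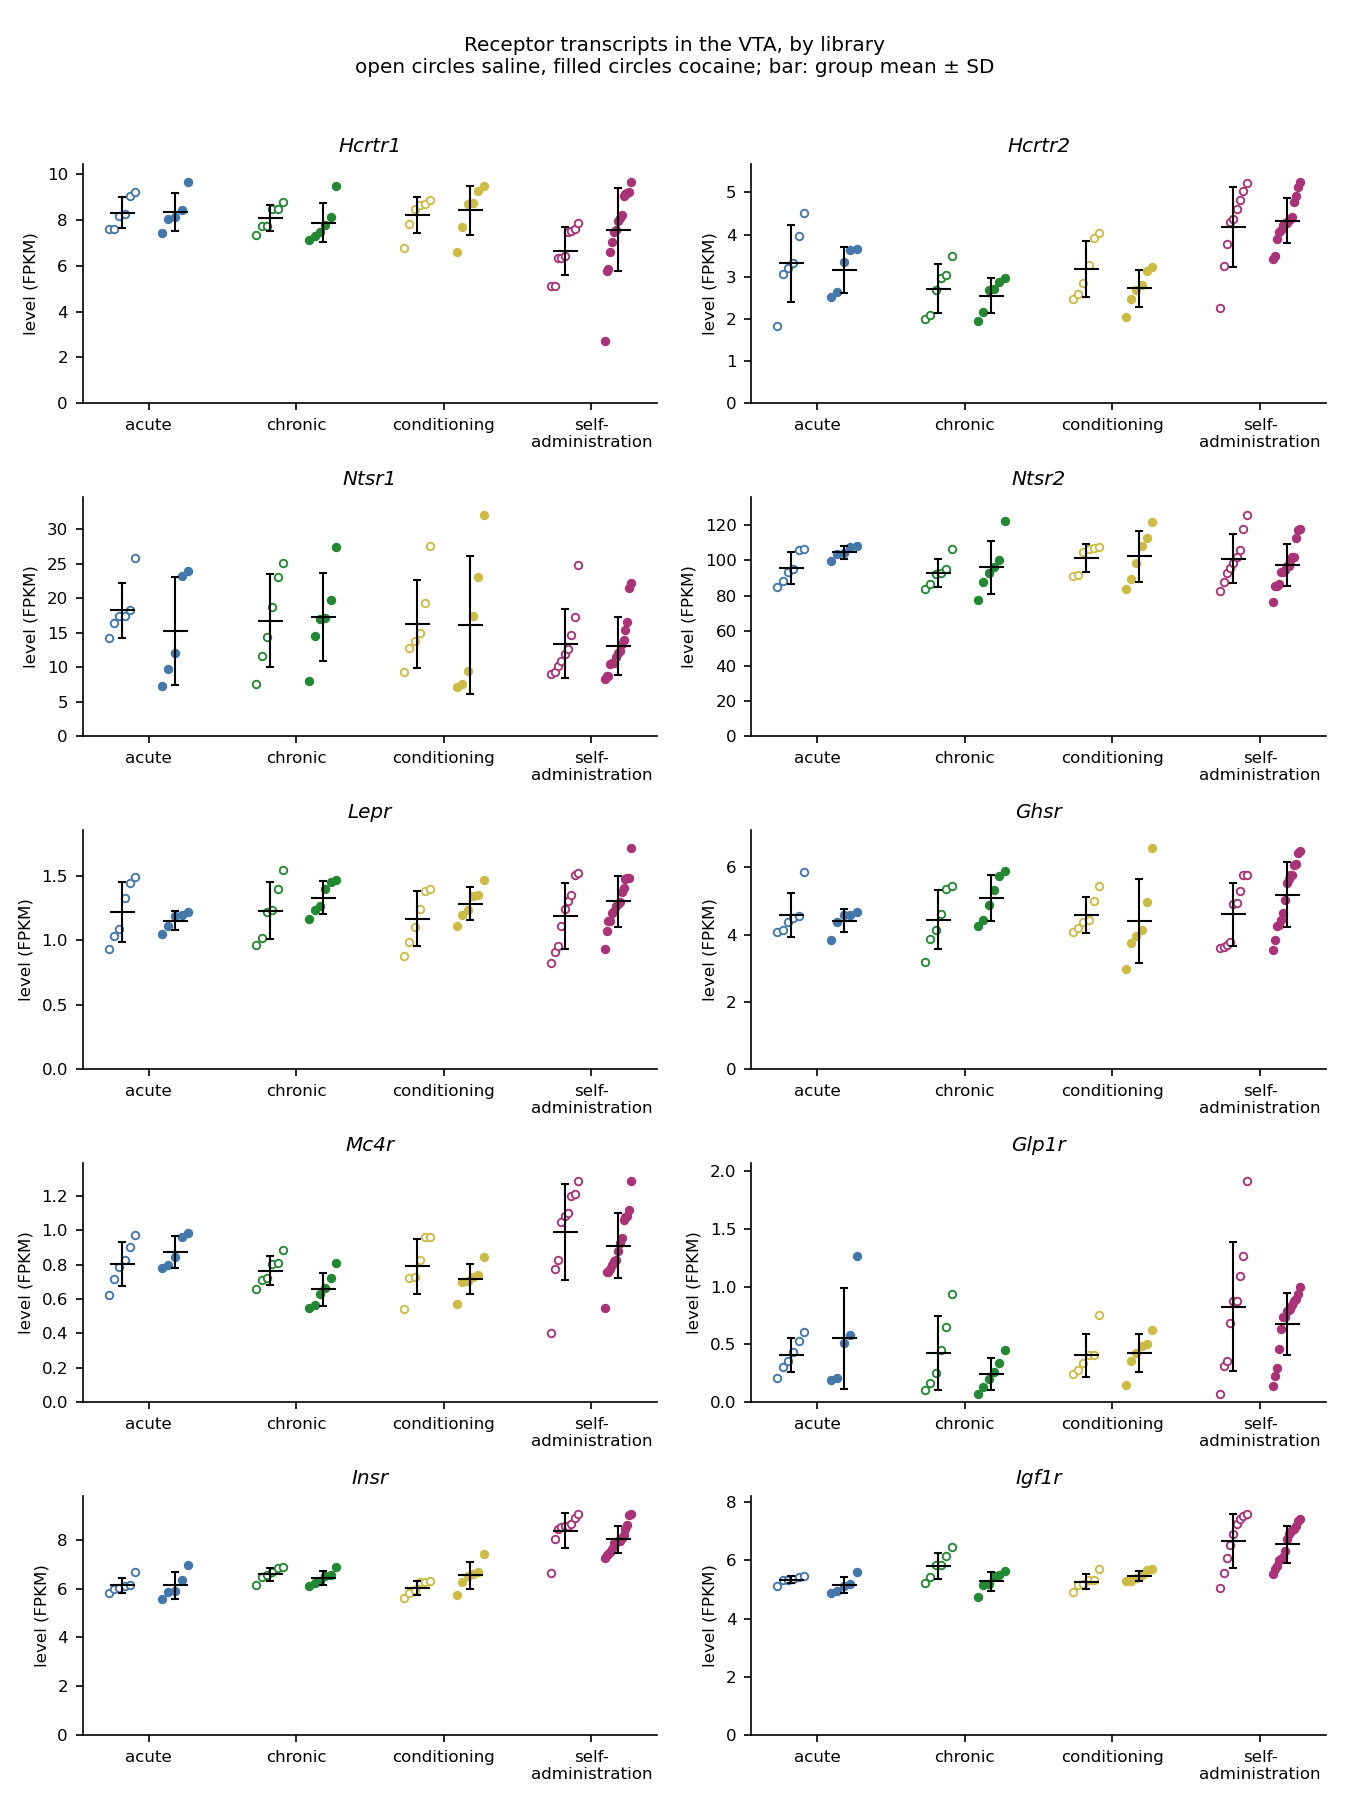
Level of each receptor (FPKM, vertical axis from 0) in each library, by paradigm (horizontal axis), with open circles for saline, filled circles for cocaine and bars for the group mean ± SD. Cocaine and saline ranges overlapped for all 10 receptors in all 4 paradigms. Insr, Igf1r and Hcrtr2 sat higher in self-administration, and Ntsr1 spread widely within every group.

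Spread between libraries of a group also differed between receptors. The coefficient of variation within groups averaged 6.37% for Insr, 6.71% for Igf1r, 10.6% for Ntsr2, 12.3% for Hcrtr1 and 40.2% for Ntsr1. Over the 13186 symbols the median was 9.54% and the 90th percentile 20.1%, and Ntsr1 lay at the 97.9th percentile. Glp1r had a value of 54.9%, at a mean level of 0.495 FPKM. The read depth is unknown, and the part of low fragment counts in that spread was not tested.

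Hcrtr1, the orexin receptor that prefers orexin A, is encoded at chr4:130130217-130139359 (GRCm38, minus strand). Its injection libraries ran from 6.60 to 9.65 FPKM among cocaine (median 8.11) and from 6.78 to 9.22 FPKM among saline libraries (median 8.36). In self-administration the saline libraries ran from 5.11 to 7.88 FPKM (median 6.43) and the cocaine libraries from 2.72 to 9.66 FPKM (median 7.96). The lowest value, 2.72 FPKM in self-administration cocaine library 6, stood apart from the next lowest of that group at 5.78 FPKM. That library also had the lowest mean correlation with the other self-administration libraries over all genes, 0.967, and over the 24 self-administration libraries Hcrtr1 followed this measure (r = 0.78, rho = 0.58; r = 0.62 without the 2 libraries farthest from its median). Over the 35 injection libraries the same r was 0.16. Among 13185 genes, those whose deviations from group means were closest to Hcrtr1 were Mapk8ip3 (r = 0.84), Cntnap1 (0.83), Nckipsd (0.83) and Tnk2 (0.81), and the first of these had r = 0.51 within injection and 0.90 within self-administration libraries.

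Hcrtr2, which binds both orexins, is encoded at chr9:76225880-76323856 (minus strand), overlapped by the annotated gene Gm27234. Whether the libraries kept strand is not stated, so reads in stretches shared by these 2 genes cannot be told apart. Whether their exons overlap was not examined. Its level ran from 1.83 to 4.52 FPKM in injection saline (median 3.05) and from 1.94 to 3.66 FPKM in injection cocaine libraries (median 2.70). In self-administration it ran from 2.26 to 5.23 FPKM with saline (median 4.38) and from 3.42 to 5.25 FPKM with cocaine (median 4.29). Libraries with more Th had less Hcrtr2: r was -0.68 over the 35 injection libraries (rho = -0.71; r = -0.67 without the 2 libraries farthest from the median of Th) and -0.56 over the 24 self-administration libraries (rho = -0.57; r = -0.63 without 2). Its closest genes were Gpr101 (r = 0.83 over 59 libraries), Stk26 (0.81), Ctbp2 (0.81) and L3mbtl3 (0.81). The 2 orexin receptors therefore followed different sets of genes, and neither tracked Th upward (Hcrtr1 r = 0.06 within injection and -0.10 within self-administration libraries).

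Ntsr1, the high-affinity neurotensin receptor, and Ntsr2 were set apart both by level and by the genes they followed. Ntsr1 lies at chr2:180499976-180544980 and Ntsr2 at chr12:16653382-16660227 (GRCm38, both plus strand). The stretches before their starts (RefSeq, GRCm38.p6, plus strand, 5′ to 3′, with CG dinucleotides in capitals) are shown because the data set these related genes apart and their CG content differs. For Ntsr1 this is chr2:180499726-180499975, the whole window of 250 bases, with 18 CG. For Ntsr2 it is chr12:16653220-16653381, the first 162 bases of its window, up to the gene start in the annotation, with 2 CG.
Ntsr1: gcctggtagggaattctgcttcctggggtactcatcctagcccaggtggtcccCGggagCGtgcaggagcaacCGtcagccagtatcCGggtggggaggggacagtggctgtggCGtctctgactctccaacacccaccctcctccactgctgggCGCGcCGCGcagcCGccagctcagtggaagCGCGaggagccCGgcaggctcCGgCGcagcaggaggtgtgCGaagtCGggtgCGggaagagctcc
Ntsr2: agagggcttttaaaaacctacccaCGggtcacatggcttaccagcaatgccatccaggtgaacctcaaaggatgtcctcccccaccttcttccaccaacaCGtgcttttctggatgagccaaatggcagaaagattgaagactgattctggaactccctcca
The 250 bases before the RefSeq start held 18 CG dinucleotides for Ntsr1 and 4 for Ntsr2 (chr12:16653220-16653469, longer than the stretch printed), against a median of 6 over 32851 such windows of all genes. RefSeq windows were matched for 8 of the 10 receptors, all but Insr and Mc4r. Igf1r had 42, more than 99.1% of windows, Glp1r 26, Ghsr 11 and Hcrtr2 4, while the 3 starts of Hcrtr1 had 21, 14 and 7. Both strands of the 11 windows of these 8 receptors were searched for 5 motifs of which none contains another, and 0 windows held any of them. Windows of Hcrtr1, Hcrtr2, Ntsr2, Lepr and Glp1r lay partly or wholly within the annotated limits of the gene. The letters AAAGGTCA, the NBRE bound by Nr4a2, a factor that dopamine neurons need, were in 1.34% of the windows of all genes. The forkhead letters TGTTTAC were in 3.17% of these windows and the letters TAATCC, bound by Pitx factors, in 6.25%. The cyclic AMP response element TGACGTCA was in 1.55% of windows, and the TATA letters TATAAA were in 12.4%. These are matches of letters in a window and no measure of binding.

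Ntsr1 ran from 7.07 to 32.1 FPKM over the 59 libraries (median 14.3), and this spread lay within groups. In the conditioning cocaine group its 6 libraries ran from 7.07 through a median of 13.5 to 32.1 FPKM, and library 3 was lowest and library 0 highest for both Ntsr1 and Th (146 and 655 FPKM of Th). In the acute cocaine group the 5 libraries held 7.32, 9.71, 12.1, 23.2 and 24 FPKM of Ntsr1. The 2 libraries with most Ntsr1 were also those with most Th in that group (503 and 497 FPKM), and a gap separated them from the other 3 in both genes.

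Of 13185 genes, Th was the one closest to Ntsr1 (r = 0.98 over 59 libraries), followed by Syt17 (0.97), Drd2, the dopamine autoreceptor (0.96), and Ret, a receptor for neurotrophic factors of the GDNF family (0.96). With Th, r was 0.99 over the 35 injection libraries (rho = 0.98; 0.99 without 2 libraries) and 0.96 over the 24 self-administration libraries (rho = 0.94; 0.94 without 2). The SD of Ntsr1 within groups was 0.53 on the log2(FPKM + 1) scale, that of Th 0.66, and that of the difference Ntsr1 minus Th 0.18. Mean Ntsr1 minus Th was -4.17 ± 0.21 log2 units in cocaine and -4.28 ± 0.07 in saline libraries of the acute paradigm (SD, n = 5 and 6). It was -4.52 ± 0.09 and -4.33 ± 0.25 in the chronic (SD, n = 6 and 6) and -4.28 ± 0.07 and -4.17 ± 0.12 in the conditioning paradigm (SD, n = 6 and 6). In self-administration it was -4.16 ± 0.19 and -4.11 ± 0.23 (SD, n = 15 and 9). The cocaine mean was thus higher in the acute and lower in the other 3 paradigms. In every group Ntsr1 had a smaller SD than Th, so Ntsr1 minus Th also depends on the level of Th itself. The differences of this measure between cocaine and saline were not tested. Such points share library, dissection and depth, and in bulk tissue fewer cells of a type and less RNA per cell cannot be told apart.

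Ntsr2 ran from 76.4 to 126 FPKM over all libraries (median 96.9) and had a weaker relation to Th than Ntsr1 had. Its r with Th was -0.06 within injection (rho = -0.07; 0.00 without 2 libraries) and 0.31 within self-administration libraries (rho = 0.23; 0.44 without 2). Its closest genes were Apoe (r = 0.62), Gamt (0.61), Aldh9a1 (0.61) and Ucp2 (0.61). With a list of 10 astrocyte markers its r was 0.13 within injection and 0.59 within self-administration libraries (rho = 0.14 and 0.47; 0.21 and 0.48 without 2). With 7 microglia markers r was about as high, 0.12 and 0.53 (rho = 0.11 and 0.58; 0.10 and 0.67 without 2). Aqp4, the astrocyte water channel, had r = -0.39 with Ntsr2 within injection (rho = -0.38) and 0.25 within self-administration libraries (rho = 0.09).

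**Figure D2:**
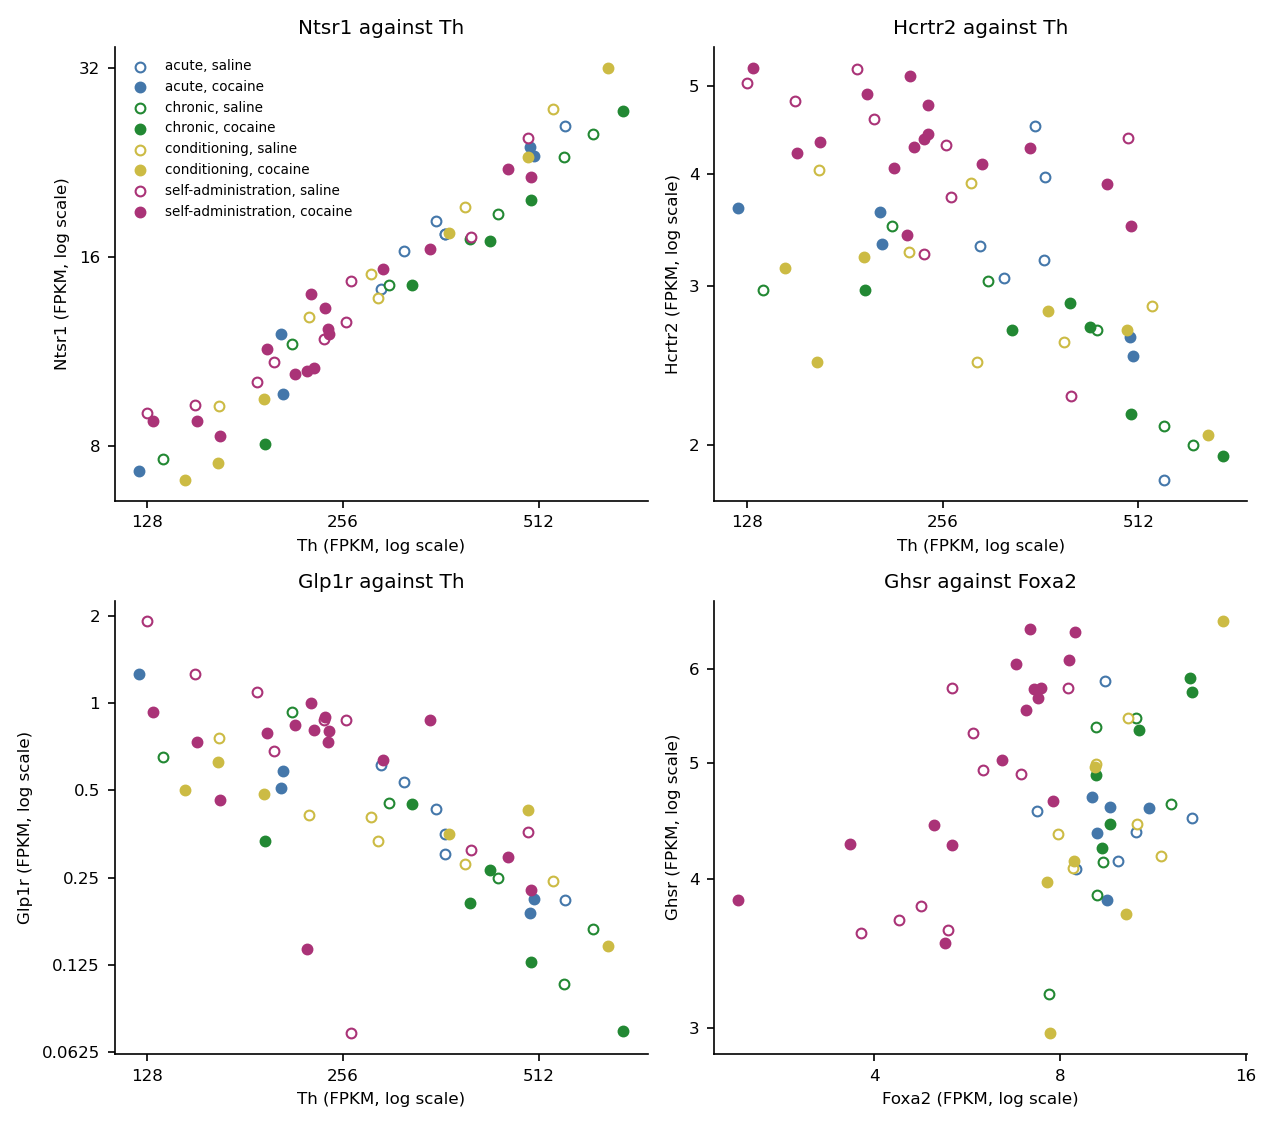
Ntsr1, Hcrtr2 and Glp1r against Th, and Ghsr against Foxa2, in FPKM on log axes, 1 point per library, with open circles for saline, filled circles for cocaine and colours for the paradigm. Ntsr1 rises with Th along 1 line in all groups, Hcrtr2 and Glp1r decline as Th rises, and Ghsr rises with Foxa2 with the self-administration libraries shifted to lower Foxa2.

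Of the receptors for leptin, ghrelin, melanocortins and glucagon-like peptide 1, Ghsr, the ghrelin receptor, at chr3:27371351-27378010 (plus strand), had the highest mean level. It ran from 2.97 to 6.58 FPKM over the 59 libraries (median 4.58). Its closest genes were the forkhead factors Foxp2 (r = 0.70) and Foxa2 (0.67), then Necab1 (0.66) and Epb4.1l4a (0.64). With Foxa2, which midbrain dopamine neurons need for their identity, r was 0.56 over the injection (rho = 0.46; 0.46 without 2) and 0.76 over the self-administration libraries (rho = 0.75; 0.77 without 2). With the list of 14 dopamine neuron markers it was 0.35 and 0.36 (rho = 0.20 and 0.31; 0.12 and 0.22 without 2), beside 0.99 and 0.93 for Ntsr1.

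Lepr, the leptin receptor, at chr4:101717404-101815352 (plus strand), ran from 0.822 to 1.72 FPKM (median 1.24). Its closest genes, Ltn1, Atm, Ralgapa1 and Son, reached r of 0.67, 0.65, 0.64 and 0.62. Against the list of hypothalamic and mammillary markers, of which 5 reached 1 FPKM, r was -0.71 over the injection (rho = -0.79) and -0.33 over the self-administration libraries (rho = -0.36). Lepr and Ghsr varied together to a modest degree (r = 0.48 within injection and 0.42 within self-administration libraries).

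Glp1r and Mc4r were low, and their values are less sure. The annotated genes AC165951.1 and AC174471.1 overlap Glp1r, so reads in stretches shared with them cannot be told apart. Whether their exons overlap was not examined. Glp1r, at chr17:30901817-30940791 (plus strand), ran from 0.0724 to 1.92 FPKM (median 0.454) and Mc4r from 0.402 to 1.29 FPKM (median 0.806), with no library at 0. Glp1r was lower where Th was higher (r = -0.85 over the injection libraries, rho = -0.90, -0.84 without 2; r = -0.63 over the self-administration libraries, rho = -0.57, -0.55 without 2). It varied with Hcrtr2 (r = 0.66 in both sets) and against Ntsr1 (r = -0.81 and -0.54). Mc4r showed no such relation to Th within injection libraries (r = -0.02), and r was -0.41 within self-administration libraries.

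Insr and Igf1r, at chr8:3122061-3279617 (minus strand) and chr7:67952827-68233668 (plus strand), had the smallest spread within groups. The annotation places Gm16180 and Vmn2r-ps88 within the limits of Insr. Over the 59 libraries Insr ran from 5.58 to 9.07 FPKM and Igf1r from 4.73 to 7.60 FPKM. Their deviations from group means had r = 0.34 with each other within injection and 0.63 within self-administration libraries (rho = 0.45 and 0.59). The genes closest to Insr were Dopey1, Kmt2a, Birc6 and Son (r = 0.76, 0.75, 0.73 and 0.73), and those closest to Igf1r were Nf1, Fry, Wdfy3 and Sorl1 (r = 0.82, 0.81, 0.81 and 0.79). In self-administration Insr was lower where oligodendrocyte markers were higher (r = -0.70 over 24 libraries, rho = -0.63, -0.47 without 2), and in the injection libraries that r was 0.14.

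Read against 11 lists of cell type markers, the receptors fell into different patterns. Each list was averaged over its markers that reached a mean of 1 FPKM. That left only 2 of 5 Edinger-Westphal and oculomotor markers and 4 of 8 choroid plexus and ependymal markers. Ntsr1 was lower where markers of the neighbouring Edinger-Westphal and oculomotor nuclei were higher (r = -0.71 within injection and -0.56 within self-administration libraries) and where choroid plexus and ependymal markers were higher (-0.53 and -0.60). Hcrtr2 had the opposite sign against the same lists, at 0.47 and 0.31 for the first and 0.53 and 0.64 for the second. Ghsr was lower where microglia markers were higher in self-administration (r = -0.61), and in injection libraries that r was -0.10.

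**Figure D3:**
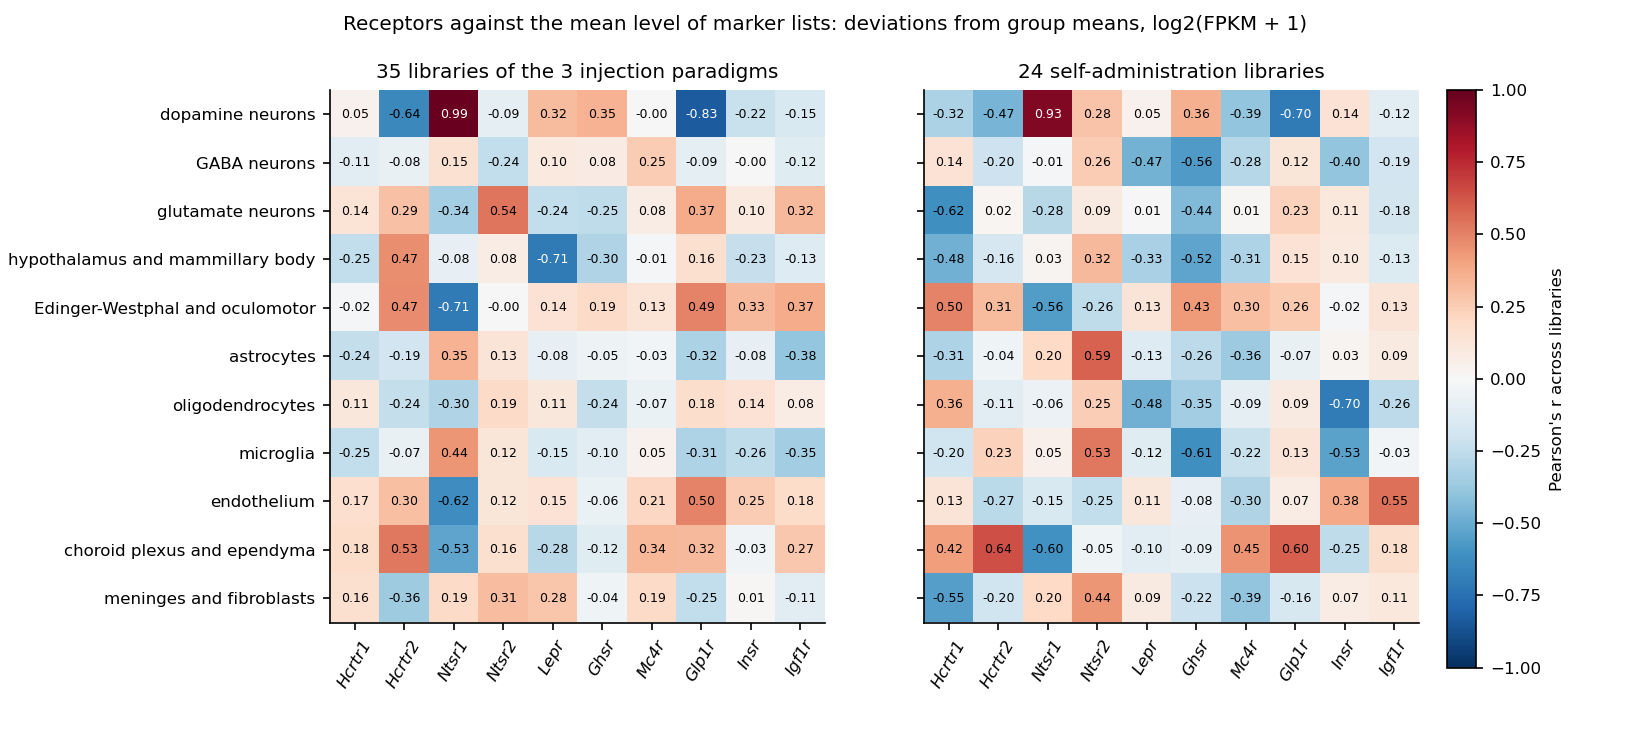
Pearson's r across libraries between each receptor (columns) and the mean level of each list of cell type markers (rows), from deviations from group means on the log2(FPKM + 1) scale, in the injection (left) and self-administration libraries (right). Ntsr1 stands out against dopamine neuron markers at 0.99 and 0.93, and Glp1r and Hcrtr2 are negative there in both sets.

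Cocaine was then compared with saline within each paradigm, the question of the design, on the log2(FPKM + 1) scale, which understates the change of low genes. By limma with Benjamini-Hochberg adjustment over all tested genes, 0 of the 8 tested receptors passed an adjusted p of 0.05 in the acute, chronic, conditioning or self-administration paradigm, where the share of all genes that passed was also 0%. With the unadjusted p at 0.05, Ntsr2 passed in the acute paradigm (3.91% of all genes did) and Igf1r in the chronic paradigm (7.38%), and no receptor did in conditioning (8.21%) or self-administration (3.43%). With the limit for testing lowered to 0.1 FPKM and the pseudocount to 0.1, which adds Mc4r and Glp1r, 0 of 10 passed in any paradigm. On that log2(FPKM + 0.1) scale the lowest values of the added pair were in the chronic paradigm, -0.50 ± 0.40 for Glp1r and -0.20 ± 0.11 for Mc4r (adjusted p of 0.856 and 0.779), beside -0.18 and -0.09 on the log2(FPKM + 1) scale.

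Acute cocaine libraries held 99.4, 103, 104, 108 and 108 FPKM of Ntsr2. Acute saline libraries ran from 84.8 to 107 FPKM with a median of 94.1 FPKM, so that all 5 cocaine libraries lay above the saline median and the ranges overlapped. The difference was 0.13 ± 0.06 (SE; limma p = 0.0493, adjusted p = 0.985; exact two-sided permutation p = 0.0758). It was 0.04 ± 0.09, 0.00 ± 0.09 and -0.05 ± 0.07 in the chronic, conditioning and self-administration paradigms.

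Chronic cocaine libraries ran from 4.73 to 5.64 FPKM of Igf1r (median 5.33), and chronic saline libraries from 5.23 to 6.44 FPKM (median 5.83). None of the 6 cocaine libraries reached the saline median, and the ranges overlapped. The difference was -0.12 ± 0.05 (SE; limma p = 0.0426, adjusted p = 0.671; exact two-sided permutation p = 0.0411). This was the 1 of 40 exact tests, of 10 receptors in 4 paradigms, with p under 0.05, and it did not hold after adjustment. In conditioning 6 of 6 cocaine libraries lay above the saline median of Igf1r, and the difference of the group means was 0.04 ± 0.04 (SE).

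Of the 8 receptors tested on the log2(FPKM + 1) scale, Ntsr1 had the largest difference in size, -0.36 ± 0.29 (SE; limma p = 0.249, adjusted p = 0.985) in the acute paradigm, beside -0.47 ± 0.37 for Th. Over the 3 other paradigms it was 0.06 ± 0.32, -0.14 ± 0.39 and -0.02 ± 0.16. The SE of Ntsr1 in the injection paradigms, 0.29 to 0.39, was larger than that of Igf1r, 0.04 to 0.05, so a difference of a given size was less detectable for Ntsr1. The differences of the 7 other tested receptors ran from -0.16 ± 0.11 (Hcrtr2, conditioning) to 0.17 ± 0.11 (Ghsr, chronic). Insr differed by 0.10 ± 0.05 in conditioning (exact two-sided permutation p = 0.0714), where its cocaine libraries ran from 5.74 to 7.43 FPKM and its saline libraries from 5.62 to 6.31 FPKM. Ghsr also differed by 0.15 ± 0.10 and Hcrtr1 by 0.14 ± 0.13 in self-administration, and the differences of Hcrtr2, Ghsr and Hcrtr1 named here had unadjusted limma p from 0.127 to 0.299.

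**Figure D4:**
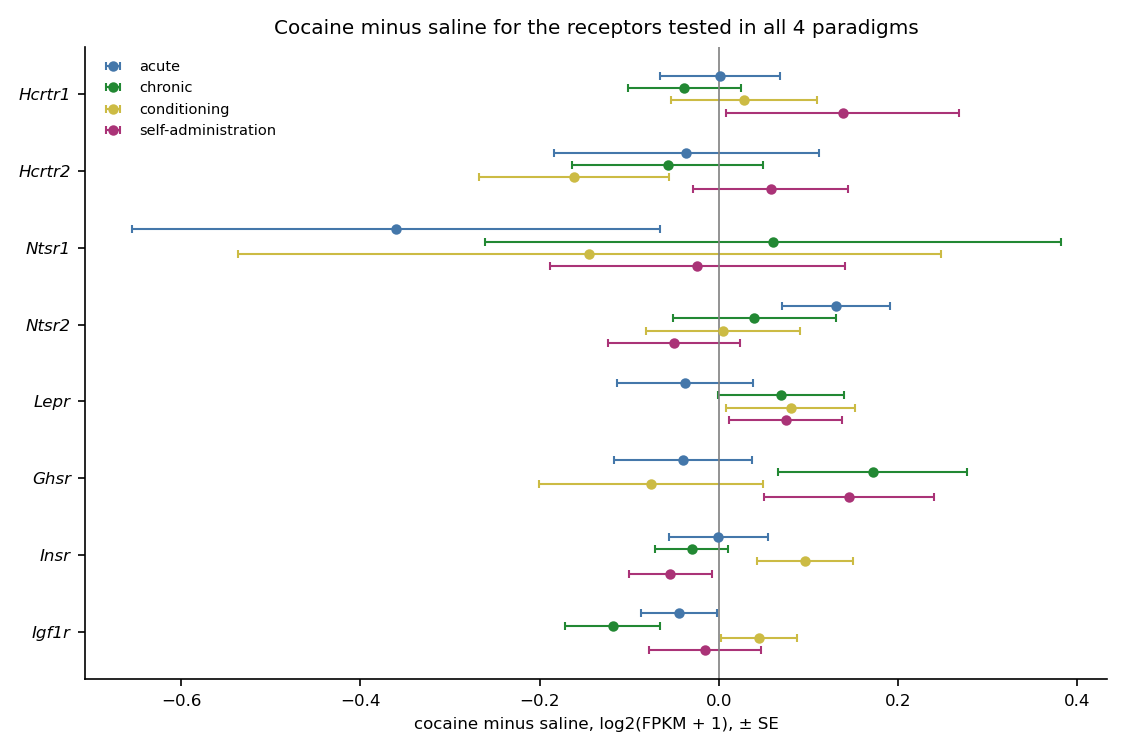
Cocaine minus saline (log2(FPKM + 1), horizontal axis, point ± SE) for the 8 receptors tested in every paradigm (rows), by paradigm (colours). Most points lie within 0.2 of 0, and the bars of Ntsr1 are the widest.

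The average over the 4 paradigms was the drug term of a fit with paradigm as an additive term. In it, paradigms with more libraries weigh more. On this average 0 of 8 receptors passed (0.00758% of all genes did, and 12.8% had an unadjusted p under 0.05). Differences ran from -0.10 ± 0.14 for Ntsr1 to 0.07 ± 0.06 for Ghsr. A moderated F test of whether the cocaine difference varied between paradigms also passed for 0 of 8 (0% of all genes, and 1.43% at an unadjusted p under 0.05, none of them a receptor). These tests bear on the size of change in these libraries, and a p above the threshold does not show that values were equal.

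More genes passed between self-administration and the injection paradigms than between cocaine and saline. Between the 3 saline groups of the injection paradigms, 0 of 8 receptors passed by limma's moderated F test (0.0303% of all genes did; 3.76% had an unadjusted p under 0.05, none of them a receptor). Self-administration saline libraries (n = 9) against those 18 saline libraries gave 4 of 8 receptors, while 59.6% of all genes passed (31.8% higher and 27.8% lower). The same contrast in cocaine libraries (15 against 17) gave 3 of 8 receptors, against 59.1% of all genes (32.2% higher and 26.9% lower). The receptors' share was thus near or below that of all genes. Paradigm and any batch of surgery, dissection or sequencing cannot be told apart, since the labels give none and no group spans paradigms.

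Insr was higher in self-administration. Saline libraries ran from 6.63 through a median of 8.56 to 9.07 FPKM there and from 5.62 through 6.21 to 6.87 FPKM in the injection paradigms, and 8 of 9 lay above the highest injection value. The difference was 0.37 ± 0.04 (SE; limma adjusted p = 4.11e-09). In cocaine libraries it was 0.29 ± 0.03 (adjusted p = 1.42e-08), with ranges of 7.25 to 9.07 and 5.58 to 7.43 FPKM that overlapped through the highest injection library.

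Igf1r was also higher, at 5.04 to 7.60 FPKM (median 6.91) in self-administration saline and 4.91 to 6.44 FPKM (median 5.35) in injection saline libraries, ranges that overlapped. The difference was 0.23 ± 0.05 (limma adjusted p = 0.000211), and 0.26 ± 0.04 (adjusted p = 4.74e-07) in cocaine libraries. Hcrtr2, with the values given above, was higher by 0.35 ± 0.11 (adjusted p = 0.00679) in saline and by 0.49 ± 0.06 (adjusted p = 1.51e-08) in cocaine libraries. Its 15 self-administration cocaine libraries overlapped the 17 injection ones only between 3.42 and 3.66 FPKM.

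Hcrtr1 was lower in self-administration saline libraries, by -0.28 ± 0.06 (limma adjusted p = 0.00026), with overlapping ranges. In cocaine libraries the difference was -0.14 ± 0.10 (adjusted p = 0.234) and, without the low library 6, -0.05 (adjusted p = 0.485). In the F test above, the cocaine difference of Hcrtr1 did not vary between paradigms past the threshold (adjusted p = 1.00). In saline libraries the 2 orexin receptors thus differed between paradigms in opposite directions.

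Ntsr1 (-0.33 ± 0.19, adjusted p = 0.132), Ntsr2 (0.06 ± 0.06), Lepr (-0.01 ± 0.06) and Ghsr (0.01 ± 0.08) did not pass in saline libraries. For Ntsr1 this rested on single libraries: without chronic saline library 2 it was -0.39 (adjusted p = 0.0499) and without self-administration saline library 6 it was -0.44 (adjusted p = 0.0366). Th differed by -0.48 ± 0.25 (adjusted p = 0.108) in the same contrast. With the limit for testing at 0.1 FPKM and a pseudocount of 0.1, 4 of 10 receptors passed in saline libraries (53.8% of all genes) and 5 of 10 in cocaine libraries (53.4%). In the latter, Glp1r was higher by 0.69 ± 0.23 (adjusted p = 0.0126) and Mc4r by 0.24 ± 0.08 (adjusted p = 0.0144), and in saline libraries the values were 0.68 ± 0.31 (adjusted p = 0.0712) and 0.26 ± 0.13 (adjusted p = 0.0905).

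Transcript composition moved with this contrast over all genes. With genes cut into 10 equal bins by the GC content of the longest transcript, the median difference in saline libraries went from 0.10 in the lowest to -0.34 in the highest bin. By length it went from -0.15 in the bin of the shortest to 0.13 in that of the longest transcripts. Hcrtr1, with 58.7% GC, is in the highest GC bin, and its difference (-0.28) was closer to 0 than the median of that bin. Hcrtr2, with 39.6% GC, is in the lowest GC bin, and its difference (0.35) was larger than the bin's median. Insr (0.37) and Igf1r (0.23), both in the bin of the longest transcripts, also lay above its median. The part of composition in these differences was not tested.

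**Figure D5:**
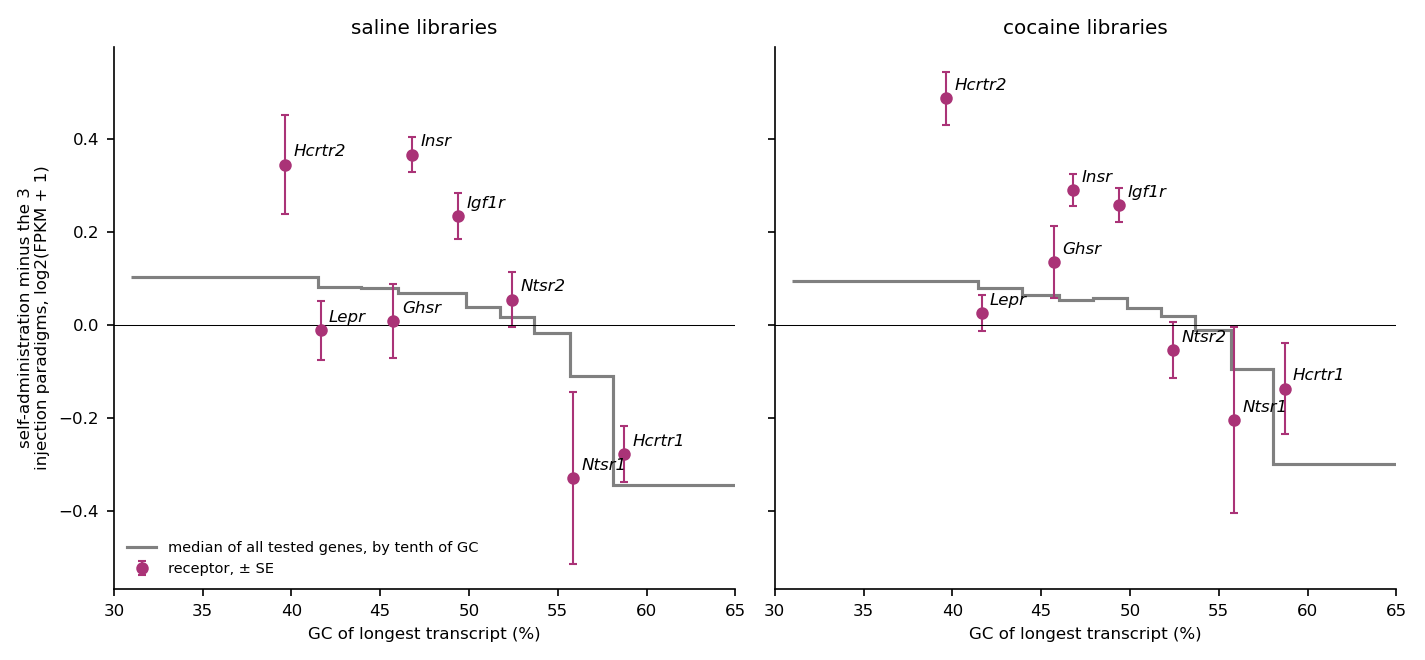
Self-administration minus the 3 injection paradigms (log2(FPKM + 1), vertical axis, point ± SE) against GC content of the longest transcript (%) for the 8 tested receptors, in saline (left) and cocaine libraries (right). The grey steps are medians of all tested genes in 10 bins of GC, from 0.10 to -0.34 in saline libraries. Hcrtr1, Hcrtr2, Insr and Igf1r lie above them in both panels, with Hcrtr1 below 0.

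Marker lists moved with the same contrast, in which 31.8% of all genes were higher and 27.8% lower. In saline libraries 7 of 8 oligodendrocyte and 5 of 7 microglia markers were lower (limma, adjusted p under 0.05), 6 of 10 astrocyte markers were higher and 1 lower, 3 of 14 dopamine neuron markers were lower and 3 of 5 tested hypothalamic markers were higher. Of the lists with fewer tested markers, 2 of 3 GABA neuron markers were higher and 1 lower. Of 8 choroid plexus and ependymal markers 3 were tested, with 2 higher and 1 lower. Of 5 Edinger-Westphal and oculomotor markers 2 were tested, with 1 lower and a median of -2.60. The sums of that last list ran from 9.11 to 578 FPKM in self-administration saline and from 6.70 to 1647 FPKM in injection saline libraries. The summed levels of the hypothalamic list, none of whose 8 markers was at 0 in all libraries of a group, ran from 9.04 to 208 FPKM in self-administration saline and from 3.79 to 53.1 FPKM in injection saline libraries. Astrocyte sums ran from 1030 to 1454 and from 888 to 1004 FPKM, and oligodendrocyte sums from 3837 to 8325 and from 5783 to 9279 FPKM. The part of these lists in the receptors' differences was not tested.

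Partners of the receptors were read from 5 lists of 102 genes. With cocaine, 0 genes of any list passed in any paradigm or on average, of 8 to 10 tested ligands and ligand-processing genes, 30 of insulin and insulin-like growth factor signalling, 11 of leptin and JAK-STAT signalling, 16 Gq and sortilin partners and 18 to 20 Gs-coupled, accessory and related receptors. List medians ran from -0.09 (ligands, conditioning) to 0.06 (ligands, chronic), beside medians within 0.01 of 0 for all genes. Neurotensin itself (Nts) ran from 4.76 to 8.07 FPKM in conditioning cocaine (median 7.16) and from 8.30 to 16.5 FPKM in conditioning saline libraries (median 10.1), ranges that did not overlap. The difference was -0.58 ± 0.16 (limma p = 0.00329, adjusted p = 0.591). Nts was named for its small unadjusted p, and 8.21% of all genes had one under 0.05 in conditioning. The share of all genes with separated ranges in this comparison was not counted. Orexin (Hcrt), made in the hypothalamus, ran from 0 to 7.18 FPKM in self-administration cocaine (median 0.126) and from 0.136 to 14.9 FPKM in self-administration saline libraries (median 2.01), which overlapped, with a difference of -1.39 ± 0.48 (p = 0.00827, adjusted p = 0.999). Pmch, another hypothalamic peptide gene, differed by -2.34 ± 0.76 (p = 0.00532, adjusted p = 0.999) in the same comparison. Beside these, the summed hypothalamic markers ran from 4.18 to 75.2 FPKM (median 5.98) with cocaine and from 9.04 to 208 FPKM (median 31.8) with saline, and their part in the difference of Hcrt was not tested.

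None of the other genes of these lists with an unadjusted p under 0.05 passed adjustment. Of all genes, 3.91% had such a p in the acute, 7.38% in the chronic, 8.21% in the conditioning and 3.43% in the self-administration comparison. In the acute paradigm the list genes with such a p were Gnaq, the Gq alpha subunit (-0.15 ± 0.05), and Pcsk1, a prohormone convertase (-0.23 ± 0.10). In the chronic paradigm the first of each list were Igfbp5, a binding protein of insulin-like growth factors (-0.37 ± 0.12), Adipor2, an adiponectin receptor (0.19 ± 0.06), Socs1, an inhibitor of JAK signalling (-0.31 ± 0.14), and Sort1, sortilin, which also binds neurotensin (-0.09 ± 0.04). Conditioning gave 3 of 18 related receptors, among them Oxtr, the oxytocin receptor (-0.45 ± 0.14), and Npy2r, a neuropeptide Y receptor (-0.30 ± 0.09). It also gave 2 of 8 ligand genes, Nts among them, 2 of 30 of insulin signalling and 1 of 16 Gq and sortilin partners. Self-administration gave 1 of 20 related receptors, Crhr1, a receptor of corticotropin-releasing hormone (0.25 ± 0.10). It also gave 1 of 10 ligand genes, Hcrt, 1 of 30 of insulin signalling and 1 of 16 Gq and sortilin partners. Averaged over paradigms, 5 of 30 insulin signalling genes had an unadjusted p under 0.05, beside 12.8% of all genes. Among them Igfbp5 differed by -0.20 ± 0.06 (limma p = 0.0014, adjusted p = 0.247), with -0.37 ± 0.12 in the chronic and -0.24 ± 0.10 in the conditioning paradigm.

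Between self-administration and injection saline libraries the lists are to be read against the 31.8% of all genes that were higher and the 27.8% that were lower. Of the ligand genes 4 of 10 were higher and 1 lower, with a median difference of 0.23 beside 0.02 for all genes, and the convertase Pcsk2 (0.32 ± 0.04), the carboxypeptidase Cpe (0.25 ± 0.04) and Pcsk1 (0.28 ± 0.07) were among those higher (limma adjusted p of 3.28e-08, 2.27e-05 and 0.000782). Insulin signalling had 13 of 30 higher and 10 lower (median 0.10), with Foxo1 (0.42 ± 0.04) and Tsc1 (0.38 ± 0.05) higher and Pik3r2 (-0.55 ± 0.06) lower. Among Gq and sortilin partners 7 of 16 were higher and 0 lower (median 0.12), among them the IP3 receptor Itpr1 (0.31 ± 0.04). Leptin signalling had 3 of 11 higher and 4 lower (median -0.02), with Ptpn11 (0.42 ± 0.05) higher and Socs1 (-0.76 ± 0.09) lower. Related receptors had 5 of 19 higher and 4 lower (median 0.10), with Adipor2 (0.90 ± 0.07) and Npy1r (0.51 ± 0.07) higher and Ramp1 (-0.43 ± 0.05) lower.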

How the data were processed

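Gene expression in 59 VTA libraries of male mice was read from 1 deposited table of FPKM. RNeasy columns and TruSeq RNA chemistry were used, per the labels' protocols. The authors' processing used Bowtie, Cuffnorm and the mm10 build, per the submitters' processing notes; tool versions, annotation, filters and scaling were not given in the sources used here. Columns were mapped to groups by name, and none was left out. Values were tested as log2(FPKM + 1) where a gene averaged 1 FPKM or more over the libraries compared, with limma 3.58.1 in R 4.3.3 (trend and robust options, two-sided, Benjamini-Hochberg adjustment over all tested genes, threshold 0.05). The fits were tested on simulated data. Depth is unknown, so no counting interval is given. Exact permutation tests compared single receptors between cocaine and saline. Relations used deviations from group means of log2(FPKM + 1). Positions are those of GENCODE M21 (GRCm38). The receptors, marker lists and pathway lists were chosen with earlier results of these data known. All receptors are named; list genes were named by the smallest unadjusted p (up to 2 per cocaine comparison with a p under 0.05, up to 4 in the self-administration saline contrast; some are not reported here), and Pmch was added after its values were seen. Relations named the 4 closest genes.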

Additional observations from a re-analysis of the deposited data

Results flagged for a closer look

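Of 70 combinations of receptor and group with 4 to 10 libraries, 3 had a library whose gap to its nearest neighbour was large for the range of its group by Dixon's test, a test that chance flags in about 1 of 20 groups. In self-administration saline library 2, Insr was the lowest of its group at 6.63 FPKM, with the next at 8.02 FPKM. In acute saline library 5, Ghsr was the highest of its group at 5.86 FPKM, with the next at 4.56 FPKM. In conditioning saline library 5, Glp1r was the highest of its group at 0.755 FPKM, with the next at 0.410 FPKM.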

How the results depend on the processing

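No paired analysis was possible because the columns of the table carry numbers from 0 that the labels do not tie to their replicate numbers, so the fits with the replicate number as a block were not run. Counts of receptors past the threshold stayed at 0 in all 4 cocaine comparisons under each other pseudocount, filter, scaling, weighting and left-out library that was run, and on average under the same settings, without each paradigm and without the least correlated library, with no other library left out. For differences of the cocaine effect between paradigms, the pseudocount, filter, quantile normalization and library weights were tried, and for the injection saline groups also the 75th percentile scaling and cocaine groups in place of saline, with a count of 0 each time. No library was left out in these. In the self-administration saline contrast the count ran from 3 (cocaine libraries in place of saline) to 5 (library weights), and from 4 to 5 without single libraries, while Insr, Igf1r, Hcrtr2 and Hcrtr1 passed under every setting that used saline libraries. Insr kept between 0.35 and 0.40, and Hcrtr1 between -0.31 and -0.24, without single libraries.

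Signs of some differences that were not past the threshold turned under some settings. In the self-administration saline contrast Ntsr1 and Hcrtr1 kept their sign but crossed the threshold, as given below. Under quantile normalization the values were 0.0078 for Insr (acute), -0.0024 for Ntsr2 (conditioning) and 0.053 for Lepr (self-administration saline contrast). Under scaling by the 75th percentile they were 0.0042, -0.0036 and 0.0089 for the same. Library weights gave -0.055 for Hcrtr1 (acute), 0.036 for Hcrtr2 and -0.15 for Ntsr1 (chronic), 0.17 for Ntsr1 (conditioning), and -0.096 for Hcrtr2, 0.15 for Ntsr1, 0.086 for Ntsr2 and -0.049 for Lepr (self-administration). They gave 0.0036 for Ntsr1 and -0.00050 for Lepr on average, and in the saline contrast -0.083 for Ntsr2, 0.080 for Lepr and -0.47 for Ntsr1, which then passed (adjusted p = 0.0314). The average effect was -0.013 for Ntsr2 without the acute, 0.0050 for Hcrtr2 without the conditioning, and -0.0031 for Hcrtr1 and 0.022 for Insr without the self-administration libraries. Cocaine libraries in place of saline gave -0.053 for Ntsr2 and 0.027 for Lepr, and -0.14 for Hcrtr1, which no longer passed. Without the least correlated library, chosen after seeing the data, these were -0.073, 0.018 and -0.053. The cause was not tested.

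Leaving out single libraries gave, in the acute paradigm, -0.066 to 0.021 for Ghsr, -0.048 to 0.037 for Hcrtr1, -0.15 to 0.041 for Hcrtr2 and -0.041 to 0.028 for Insr. In the chronic paradigm it gave -0.12 to 0.0013 for Hcrtr2, -0.13 to 0.25 for Ntsr1 and -0.032 to 0.099 for Ntsr2. Conditioning gave -0.18 to 0.0074 for Ghsr, -0.019 to 0.088 for Hcrtr1, -0.38 to 0.031 for Ntsr1 and -0.048 to 0.059 for Ntsr2. Self-administration gave -0.022 to 0.094 for Hcrtr2, -0.057 to 0.0067 for Igf1r and -0.081 to 0.090 for Ntsr1. The saline contrast gave -0.028 to 0.042 for Ghsr, -0.037 to 0.022 for Lepr and -0.44 to -0.27 for Ntsr1. Read depth is unknown, which limits Mc4r and Glp1r most.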
